A study of Mus musculus with 54 samples.

Results

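The genes of glycolysis and of the pyruvate step that follows it were followed as a set of 36 genes chosen by name. The set holds transporters of glucose and lactate, the glycolytic enzymes, the enzymes that make or remove the activator fructose bisphosphate, lactate dehydrogenase, and pyruvate dehydrogenase with its kinases. All 36 were found among the 55487 genes counted. They were measured in mouse embryonic stem cells by QuantSeq, which counts RNA near its polyadenylated end, in 54 libraries that form 18 groups of 3. After genes with few counts were removed, 35 of the 36 could be tested in one series of libraries and 34 in the other. Pdk4 was removed in both and Fbp1 in the Suz12 series.

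PRC2, which the study is about, silences developmental genes by placing methyl groups on histone H3. In the Ezh2 series all lines are labelled Ezh1-/- and Ezh2-/- and carry a PiggyBac transposon that is empty (EV), holds Ezh2 (WT) or holds Ezh2 with the changes K510R, K514R and K515R (amKR). In the Suz12 series all lines are labelled SUZ12-/- and carry an empty PiggyBac transposon (EV), one with SUZ12 (WT) or one with the SUZ12-deltadim form (ddim). WT is therefore a knockout line with the gene put back, and the promoter of the transposon and the number of clones behind a line are not given in the sources used here. Each line was collected on day 0, in serum medium with LIF, CHIR99021 and PD0325901, a pair of kinase inhibitors that hold stem cells in the naive state, and on days 1 and 4 of culture with 0.1 µM retinoic acid and without LIF and the inhibitors.

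Glycolysis splits glucose into pyruvate and yields ATP without oxygen. Its flux is set mainly at the hexokinase, phosphofructokinase and pyruvate kinase steps. Pyruvate is then turned into lactate, which leaves the cell, or is admitted to the mitochondria by the pyruvate dehydrogenase complex, which the Pdk kinases switch off. Embryonic stem cells are known for a high glycolytic rate that shifts as they leave the pluripotent state.

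Depth was even, at 4223028 to 5111007 gene counts per library in the Ezh2 series and 3801446 to 4462441 in the Suz12 series. Libraries of 1 group spread more in the Ezh2 series, with a common dispersion of 0.01917 against 0.005358. The targeted genes were checked first. The Suz12 gene stood at 64.6 to 73.8 CPM (gene counts scaled by TMM to a common library size) on day 0 in EV of its series, against 430 to 448 in WT. The gap was smaller later, at 52.5 to 53.2 against 94.6 to 99.4 CPM on day 1 and 30.6 to 33.2 against 47.8 to 64.2 on day 4. On day 0 Ezh2 was counted at 173 to 203 CPM in the libraries labelled EV of the Ezh2 series against 87.7 to 89 in WT. Counts at the 3′ end check neither the deletion nor the transposon. Ezh1 stood at 7.53 to 10.6 CPM in those EV libraries and at 0 to 0.445 in WT, although both lines have the same knockout label. For Ezh2 the EV libraries were also above WT on day 4, at 102 to 146 against 30 to 34.9 CPM. They were below WT on day 1, at 183 to 196 against 227 to 234 CPM. The targeted gene of the Ezh2 series thus goes against the label on days 0 and 4. EV of that series stands here for the libraries labelled EV, and what lies behind these counts was not tested. Cell state moved with time in every line. The summed level of 16 genes of naive and general pluripotency was followed in WT. It fell from 5620-6640 CPM on day 0 to 761-866 on day 4 in the Ezh2 series, with 5780-6080 and 549-562 CPM for the Suz12 series. In these bulk samples fewer cells of a type and less RNA per cell cannot be told apart.

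**Figure D1:**
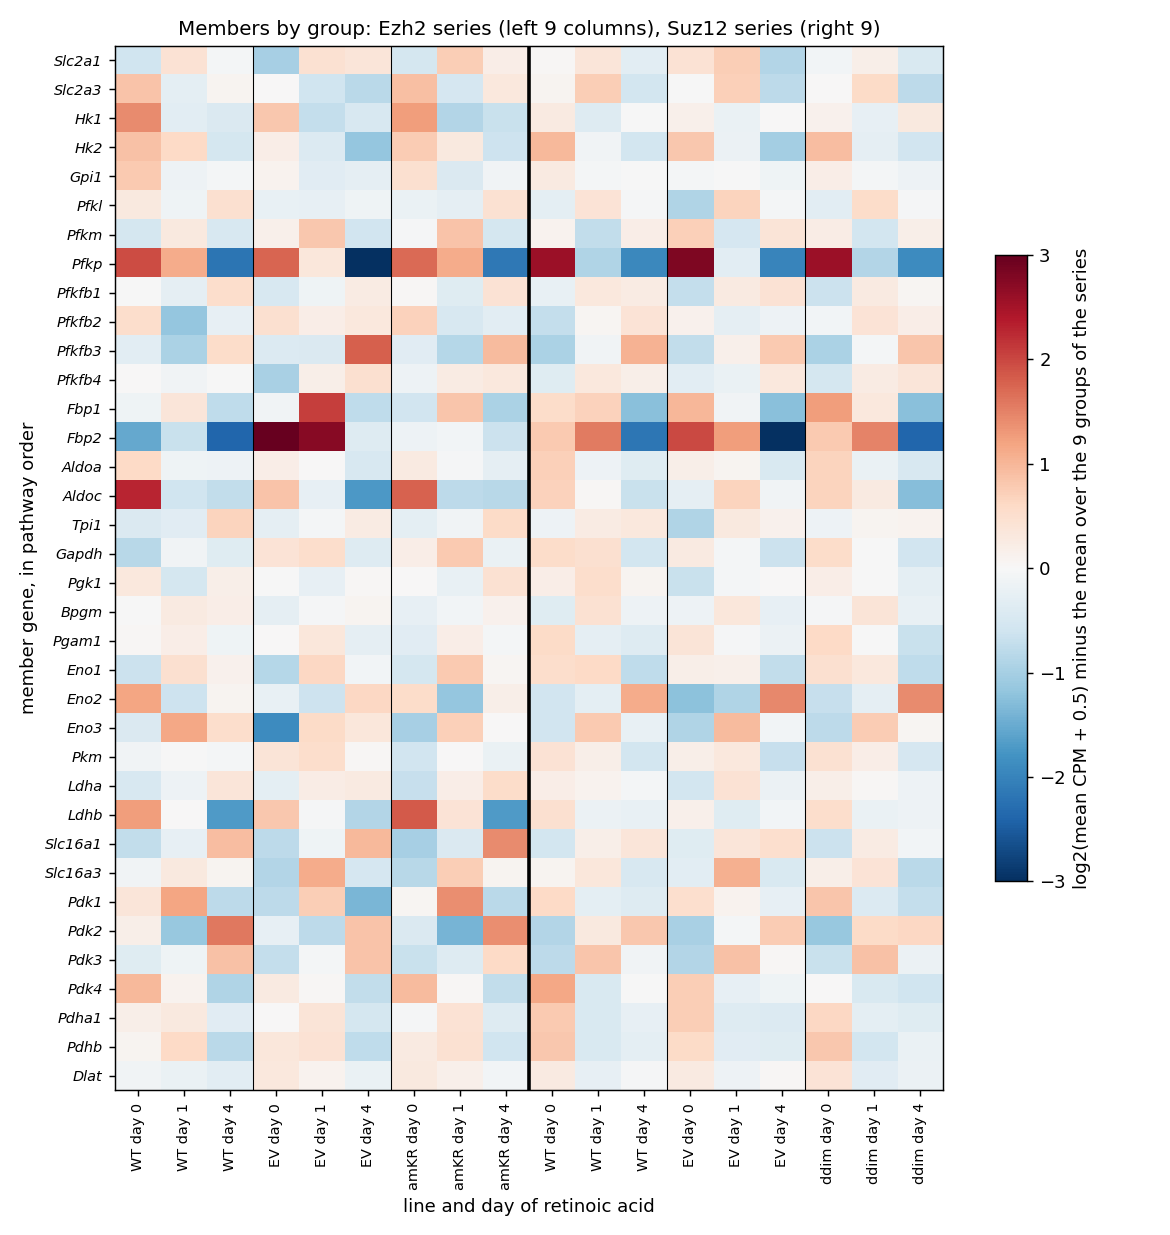
Level of the 36 genes (rows, ordered by role) in the 18 groups (columns), as log2 of mean CPM plus 0.5 minus the gene's mean over the 9 groups of its series, with red above and blue below that mean. Day 4 columns show low Pfkp, Hk2 and Aldoa and high Pdk2 and Pfkfb3 in both series, Slc16a1 is high in those of the Ezh2 series, and Fbp2 is high in the day 0 and day 1 columns of EV in the Ezh2 series.

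The 36 genes together took 0.551 to 0.639% of gene counts in WT on day 0, 0.426 to 0.457% on day 1 and 0.391 to 0.466% on day 4 in the Ezh2 series. In the Suz12 series the shares were 0.634 to 0.647%, 0.594 to 0.673% and 0.404 to 0.409%. The WT libraries of day 0 lay above those of day 4 without overlap in both series, and on day 1 they lay below day 0 in the Ezh2 series and overlapped it in the Suz12 series. In the EV lines the day 0 share was lower, at 0.420 to 0.531% in the Ezh2 series and 0.527 to 0.537% in the Suz12 series. Neither range reached that of WT of the same series. Levels of one series are set beside those of the other only as a description, since the counts of each were scaled separately.

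The upstream windows of 4 genes are printed here because these genes carry the results below: Fbp2 had the largest difference between EV and WT on day 0 in both series, Pfkp fell most in WT by day 4 of retinoic acid, Slc16a1 rose in every line, and Ldha moved in opposite directions in the WT lines of the series. The windows run from 250 bases before the transcript start to the last base before it, from RefSeq on build GRCm38.p6, read 5′ to 3′ on the gene's strand. Capitals mark ACGTG or GCGTG, the core letters bound by hypoxia-inducible and Myc-type factors, or their reverse complements CACGT and CACGC.
Fbp2 (ENSMUSG00000021456, chr13:62858401-62858650, minus strand): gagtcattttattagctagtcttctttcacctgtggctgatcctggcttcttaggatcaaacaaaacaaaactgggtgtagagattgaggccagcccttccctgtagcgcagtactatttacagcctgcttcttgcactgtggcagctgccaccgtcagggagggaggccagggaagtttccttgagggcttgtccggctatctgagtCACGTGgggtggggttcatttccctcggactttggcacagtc
Pfkp (ENSMUSG00000021196, chr13:6648772-6649021, minus strand): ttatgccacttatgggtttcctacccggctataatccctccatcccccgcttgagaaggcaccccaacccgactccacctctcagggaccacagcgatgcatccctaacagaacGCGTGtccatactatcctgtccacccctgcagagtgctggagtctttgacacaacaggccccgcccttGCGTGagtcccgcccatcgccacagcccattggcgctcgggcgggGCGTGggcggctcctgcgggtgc
Slc16a1 (ENSMUSG00000032902, chr3:104638414-104638663, plus strand): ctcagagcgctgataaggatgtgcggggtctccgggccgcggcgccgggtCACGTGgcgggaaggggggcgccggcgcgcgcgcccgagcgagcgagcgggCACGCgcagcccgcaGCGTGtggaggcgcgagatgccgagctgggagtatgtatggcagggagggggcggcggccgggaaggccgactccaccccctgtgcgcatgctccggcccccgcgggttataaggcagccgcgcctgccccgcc
Ldha (ENSMUSG00000063229, chr7:46845554-46845803, plus strand): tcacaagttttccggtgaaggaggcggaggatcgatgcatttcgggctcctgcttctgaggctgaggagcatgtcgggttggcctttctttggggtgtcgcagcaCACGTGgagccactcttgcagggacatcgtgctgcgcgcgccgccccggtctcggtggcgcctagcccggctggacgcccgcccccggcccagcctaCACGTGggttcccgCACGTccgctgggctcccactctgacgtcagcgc
Of the 36 genes, 35 had a window in the table, and 26 of these (74.3%) held ACGTG or GCGTG on either strand, against 38.6% of all 32851 windows. At least 2 matches, with overlapping matches on opposite strands both counted, were found in 15 (42.9%) against 16.7% of all. The full letters CACGTG, which contain ACGTG on both strands, were found in 5 (14.3%) against 6.02%. The windows of the set were also richer in CpG, with an observed-to-expected ratio of at least 0.6 in 22 (62.9%) against 34.0% of all, and all these motif letters contain CG. A match describes the letters of the window and is not a measured binding site.

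The first comparison asks how the genes moved when WT cells were taken out of stem cell medium into retinoic acid. In the Ezh2 series edgeR called 23 of 35 genes on day 1, 10 higher and 13 lower, while 46.5% of all genes tested were called, 22.3% higher and 24.2% lower. On day 4 it called 22, 9 higher and 13 lower, against 57% of all genes, 29.6% higher and 27.5% lower. For the Suz12 series it called 26 of 34 on day 1, 12 higher and 14 lower, against 61.9% of all genes, 32.8% higher and 29.1% lower. On day 4 it called 28 there, 8 higher and 20 lower, against 73.6% of all genes, 37.1% higher and 36.5% lower. These counts are 65.7%, 62.9%, 76.5% and 82.4% of the tested genes of the set. With 1 library left out they were 17 to 22 and 20 to 23 genes on days 1 and 4 in the Ezh2 series. For the Suz12 series they were 24 to 26 and 27 to 29. No such fit reached the 23 genes of day 1 in the Ezh2 series. The set did not move one way: its median log2 change was 0.10 and -0.16 on days 1 and 4 in the Ezh2 series and 0.17 and -0.30 in the Suz12 series, beside medians of all genes between -0.02 and 0.03. These medians were unstable: on leaving out 1 library they ran from 0.02 to 0.09 and from -0.19 to -0.02 in the Ezh2 series, and from -0.07 to 0.26 and from -0.39 to -0.25 in the Suz12 series. The day 4 median of the Ezh2 series was -0.02 without WT day 0 replicate 2, and the day 1 median of the Suz12 series was -0.07 without WT day 1 replicate 3. Between day 1 and day 4 in WT 21 were called in the Ezh2 series, against 57.4% of all genes, and 22 in the Suz12 series, against 57.7%.

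**Figure D2:**
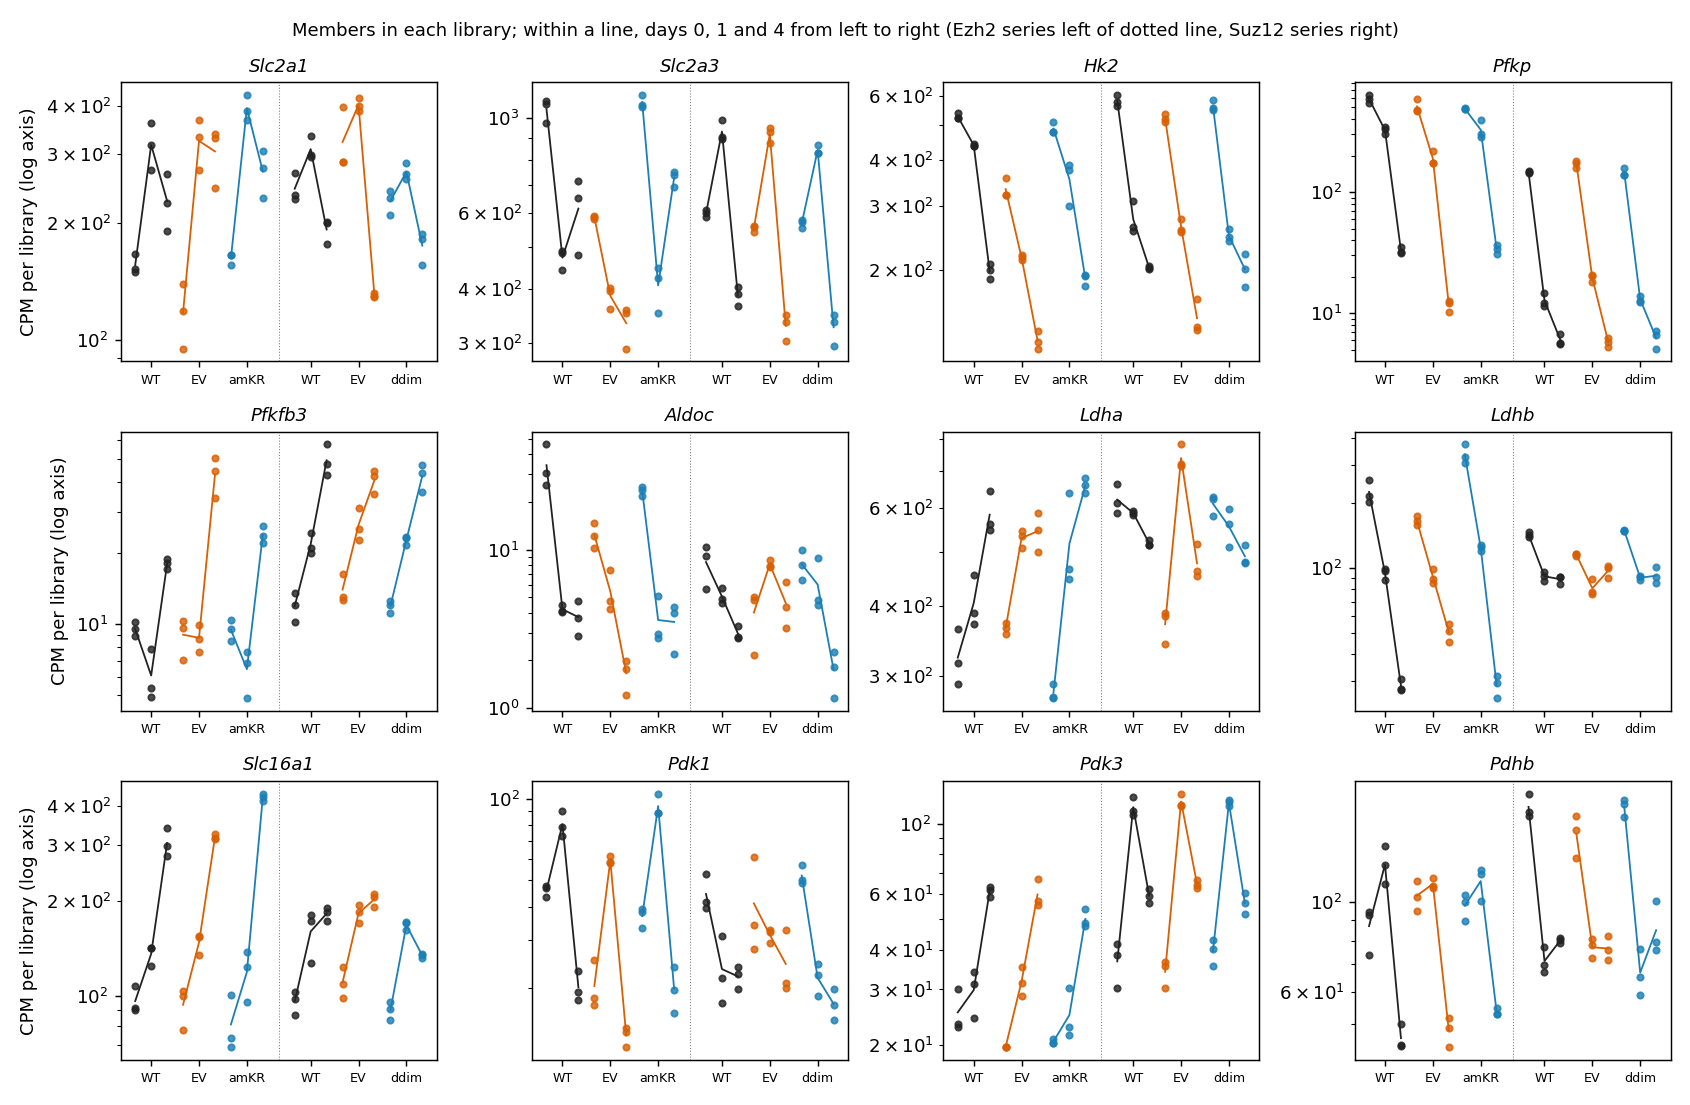
CPM on a log axis in every library for 12 genes, with lines in the order WT, EV and amKR (Ezh2 series) or WT, EV and ddim (Suz12 series) and days 0, 1 and 4 from left to right within each line. The 3 points of a group lie close together for Pfkp, Hk2 and Ldhb.

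Glucose enters by Slc2a1 (Glut1) and by the high-affinity transporter Slc2a3 (Glut3). In WT of the Ezh2 series Slc2a1 was counted at 152, 149.5 and 166 CPM on day 0, 273, 317 and 362 on day 1 and 267, 225 and 191 on day 4. It rose on day 1 (log2 change 1.03 ± 0.14, adjusted p 8.65e-07) and was still higher on day 4 (log2 change 0.55 ± 0.14, adjusted p 0.00177). In WT of the Suz12 series Slc2a1 went from 236, 230.2 and 268 CPM to 295, 298 and 335 on day 1 and 176, 201 and 199.7 on day 4. Here it rose on day 1 (log2 change 0.34 ± 0.09, adjusted p 0.00101) and was below its day 0 level on day 4 (log2 change -0.35 ± 0.09, adjusted p 0.000705), and no library of day 1 or day 4 overlapped those of day 0.

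On day 1 Slc2a3 moved in opposite directions in the series. It fell in the Ezh2 series, from 1081, 973 and 1096 CPM to 491, 485 and 443 on day 1 and stood at 652, 714 and 480.4 on day 4, with log2 changes of -1.15 ± 0.11 (adjusted p 6.3e-10) and -0.77 ± 0.11 (adjusted p 5.88e-07). It rose in the Suz12 series, from 609, 600.3 and 588 to 905, 896 and 990.5 CPM on day 1 (log2 change 0.63 ± 0.06, adjusted p 1.15e-13) and then fell to 389, 403 and 365 on day 4 (log2 change -0.64 ± 0.06, adjusted p 1.09e-13). Both series therefore ended with less Slc2a3 than they began with, after day 1 changes of opposite sign.

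Hexokinase traps glucose in the cell, through the widespread isozyme Hk1 and the inducible isozyme Hk2. Hk2 stood at 521, 539 and 522 CPM on day 0, 444, 438 and 438 on day 1 and 208, 188 and 199.5 on day 4 in WT of the Ezh2 series. The Suz12 series gave 564, 604 and 579, then 263, 255 and 309, then 205, 201 and 202. It fell by day 4 in both (log2 change -1.41 ± 0.09, adjusted p 1.09e-14 and log2 change -1.52 ± 0.07, adjusted p 2.82e-28), with all groups apart. On day 1 Hk2 had fallen by 1.08 on the log2 scale in the Suz12 series (adjusted p 6.85e-21) and by 0.26 in the Ezh2 series (adjusted p 0.0168), a call that was lost without WT day 0 replicate 2 or WT day 1 replicate 3 (highest adjusted p 0.0597), without the filter on low counts and with a correction for each chromosome's median.

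Hk1 fell from 105, 147 and 90.2 CPM to 32.8, 33.4 and 34.8 on day 1 and 27.1, 37.9 and 28.2 on day 4 in the Ezh2 series (log2 change -1.87 ± 0.18, adjusted p 3.57e-10 on day 4). Its fall was smaller in the Suz12 series, from 50.5, 44.7 and 37.4 CPM to 27.4, 33.5 and 22.0 and 35.2, 37.6 and 34.6 (log2 change -0.30 ± 0.13, adjusted p 0.0277 on day 4). The day 4 call in the Suz12 series was lost in 4 of the 6 fits without a library of these groups (highest adjusted p 0.208), and held without WT day 0 replicate 3 or WT day 4 replicate 2. The difference between the day 4 changes was called (1.62 ± 0.23 for the Suz12 minus the Ezh2 series, adjusted p 2.96e-08), and Hk1 began at a higher level in the Ezh2 series. Gpi1, which turns glucose 6-phosphate into fructose 6-phosphate, was lower on day 4 in both, by 0.84 (adjusted p 0.000566) and 0.28 (adjusted p 0.000815) on the log2 scale.

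Phosphofructokinase commits sugar to glycolysis and has a liver-type (Pfkl), a muscle-type (Pfkm) and a platelet-type (Pfkp) subunit. Pfkp was counted at 549, 634 and 583 CPM on day 0, 329, 304 and 342 on day 1 and 31.2, 31.9 and 35.5 on day 4 in WT of the Ezh2 series. Its Suz12 series values were 146, 144 and 148 CPM, then 14.6, 12.3 and 11.4 on day 1 and 5.59, 5.64 and 6.74 on day 4. No library of a later day overlapped an earlier one, and the fall by day 4 was the largest of any gene of the set in both series (log2 change -4.16 ± 0.14, adjusted p 1.54e-22 and log2 change -4.60 ± 0.13, adjusted p 2.95e-41). The Suz12 series was ahead on day 1, with a log2 change of -3.52 ± 0.11 against -0.86 ± 0.12 and a called difference (adjusted p 2.19e-22).

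The other subunits moved less. Pfkl was not called in WT of the Ezh2 series and rose in the Suz12 series from 121, 120.2 and 108 CPM to 203, 203 and 159 on day 1 (log2 change 0.69 ± 0.09, adjusted p 5.82e-10). Pfkm rose on day 1 in the Ezh2 series, from 11.1, 15.0 and 10.4 to 23.4, 19.2 and 23.3 CPM (log2 change 0.85 ± 0.18, adjusted p 0.000253), and fell in the Suz12 series, from 29.5, 20.1 and 25.8 to 14.6, 10.6 and 15.8 CPM (log2 change -0.87 ± 0.17, adjusted p 1.13e-05). It was not called on day 4 in either series.

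Fructose 2,6-bisphosphate, the main activator of phosphofructokinase, is made and removed by the Pfkfb enzymes, of which Pfkfb3 has the highest kinase activity. Pfkfb3 rose by day 4 in both series, from 10.2, 8.87 and 9.50 to 18.8, 17.1 and 18.1 CPM in the Ezh2 series (log2 change 0.91 ± 0.20, adjusted p 0.000184) and from 10.2, 12.0 and 13.5 to 47.5, 57.8 and 43.0 CPM in the Suz12 series (log2 change 2.05 ± 0.16, adjusted p 9.69e-19). On day 1 it had fallen in the Ezh2 series (log2 change -0.65 ± 0.22) and risen in the Suz12 series (0.87 ± 0.17), and the fall was lost without WT day 0 replicate 1, WT day 1 replicate 2 or WT day 1 replicate 3 (highest adjusted p 0.102). Pfkfb2 was near the detection limit. Counts in the Ezh2 series gave 0.890, 2.05 and 1.81 CPM on day 0 and 0, 0.215 and 0.224 on day 1 (adjusted p 0.000891), too few counts for a fold. For the Suz12 series it went from 1.07, 0.803 and 1.06 to 2.56, 1.88 and 3.72 CPM by day 4 (log2 change 1.45 ± 0.56, adjusted p 0.0164), a call lost when WT day 0 replicate 2 or WT day 4 replicate 3 was left out (highest adjusted p 0.0957). Pfkfb1 and Pfkfb4 stayed under 14 CPM in every WT library, and of their changes from day 0 one was called, a rise of Pfkfb1 on day 1 in the Suz12 series (adjusted p 0.0436), which was lost without WT day 0 replicate 1 or 3 or WT day 1 replicate 1 or 2 (highest adjusted p 0.158).

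Fructose bisphosphatase runs the phosphofructokinase step backwards in gluconeogenesis, as the liver form Fbp1 and the muscle form Fbp2. Fbp2 in WT of the Suz12 series stood at 12.1, 12.3 and 18.6 CPM on day 0, 27.6, 26.1 and 19.9 on day 1 and 2.10, 0.940 and 1.16 on day 4. Fbp2 was low throughout in the Ezh2 series, at 4.23, 2.96 and 3.39 CPM, then 6.74, 6.46 and 7.18, then 1.36, 1.18 and 2.64. It rose on day 1 in both (log2 changes 0.94 ± 0.26 and 0.77 ± 0.19) and fell below day 0 by day 4 (log2 change -1.03 ± 0.33, adjusted p 0.00791 and log2 change -3.33 ± 0.32, adjusted p 1.89e-14). The day 4 call in the Ezh2 series was lost without WT day 0 replicate 1, WT day 4 replicate 1 or WT day 4 replicate 2 (highest adjusted p 0.0575). Fbp1 was at most 1.61 CPM in any WT library and at 0 in 5 of the 6 WT libraries of day 4.

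Aldolase cleaves the 6-carbon sugar, through the ubiquitous Aldoa and the brain-type Aldoc. Aldoa fell from 1016, 1061 and 1051 CPM to 593, 589 and 546 on day 1 and 491, 478 and 521 on day 4 in the Suz12 series (log2 change -1.07 ± 0.07, adjusted p 5.36e-23). For the Ezh2 series the fall was from 945, 1544 and 1039 to 608, 819.8 and 661 CPM (log2 change -0.76 ± 0.22, adjusted p 0.00546), with day 0 replicate 2 the highest and the call lost without it (adjusted p 0.0556). Aldoc fell from 25.6, 46.4 and 30.8 CPM to 4.50, 4.09 and 4.04 on day 1 and 3.68, 4.73 and 2.84 on day 4 in the Ezh2 series (log2 change -3.18 ± 0.26, adjusted p 4.37e-12). The Suz12 series started lower, at 5.64, 9.10 and 10.3 CPM, and reached 2.80, 3.29 and 2.79 on day 4 (log2 change -1.49 ± 0.32, adjusted p 4.24e-05). The groups of day 0 and day 4 did not overlap for either aldolase in either series.

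Triose phosphate isomerase (Tpi1), which interconverts the products of aldolase, rose by day 4 from 90.4, 109 and 115 to 246, 269 and 162 CPM in the Ezh2 series (log2 change 1.10 ± 0.15, adjusted p 1.95e-07) and from 263, 251 and 250.3 to 356, 354 and 339 CPM in the Suz12 series (log2 change 0.46 ± 0.07, adjusted p 6.67e-08). Gapdh, the dehydrogenase of the next step, could be followed in the Suz12 series alone: it fell from 636, 614 and 688 CPM to 294, 319 and 289.9 on day 4 (log2 change -1.10 ± 0.20, adjusted p 5.98e-05), with day 1 at 473, 491 and 879.6. In WT of the Ezh2 series Gapdh scattered, at 60.1, 46.4 and 88.9 CPM on day 0, 102, 162 and 60.8 on day 1 and 154, 71.2 and 43.5 on day 4, and the days overlapped. Gapdh and Pgk1 have many processed copies in the mouse genome, and reads with more than one alignment, 16.931 to 23.271% of each library, were not assigned to genes, so that their counts are uncertain. The strand setting of the counting is not given in the sources used here, and a gene on the opposite strand lies over the 3′ end of Pfkp (Pitrm1), Tpi1 (Spsb2), Gapdh (Iffo1), Pdha1 (Map3k15) and Slc2a1 (Gm12868).

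Phosphoglycerate mutase (Pgam1) fell by day 4 in the Suz12 series, from 56.1, 54.1 and 58.4 to 31.0, 30.1 and 24.9 CPM (log2 change -0.97 ± 0.15, adjusted p 5.28e-07), and was not called in the Ezh2 series. Bpgm, which makes the haemoglobin regulator 2,3-bisphosphoglycerate, rose on day 1 in the Suz12 series from 8.86, 8.30 and 9.03 to 16.4, 15.0 and 16.3 CPM (log2 change 0.86 ± 0.20, adjusted p 0.000163), and was not called in the Ezh2 series. Pgk1, the first ATP-yielding kinase, was called in no comparison within either series other than day 1 of WT in the Ezh2 series, where it fell from 8.90, 12.7 and 7.69 to 4.27, 5.82 and 5.38 CPM (log2 change -0.92 ± 0.33, adjusted p 0.0228), lost without WT day 0 replicate 2, WT day 1 replicate 1 or WT day 1 replicate 3 (highest adjusted p 0.139).

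The enolases separated the series. Eno1, the ubiquitous form, rose in the Ezh2 series from 15.8, 22.8 and 19.2 CPM to 45.4, 49.3 and 33.4 on day 1 and 36.2, 27.8 and 36.0 on day 4 (log2 change 0.79 ± 0.21, adjusted p 0.00191). Eno1 began higher in the Suz12 series, at 128, 141 and 138 CPM, stood at 122, 136 and 169.8 on day 1 and fell to 56.4, 59.7 and 50.0 by day 4 (log2 change -1.29 ± 0.13, adjusted p 6.85e-10). Eno1 has a retrocopy, Eno1b, and the split of reads between them is uncertain. Eno2, the neuronal form, went from 5.57, 7.05 and 7.69 CPM to 2.92, 0.646 and 1.12 on day 1 and 2.91, 2.17 and 3.45 on day 4 in the Ezh2 series (log2 change -1.24 ± 0.41, adjusted p 0.0104 on day 4). It rose from 5.37, 4.01 and 3.98 to 14.9, 15.5 and 16.0 CPM in the Suz12 series (log2 change 1.79 ± 0.24, adjusted p 8.22e-10). The fall in the Ezh2 series was lost without WT day 4 replicate 2 (adjusted p 0.0514). Eno3, the muscle form, rose on day 1 in both, from 7.35, 12.1 and 9.72 to 30.8, 35.3 and 24.9 CPM (log2 change 1.64 ± 0.21, adjusted p 1.11e-07) and from 13.2, 14.4 and 12.7 to 35.9, 38.0 and 32.7 CPM (log2 change 1.40 ± 0.17, adjusted p 7.21e-11).

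Pkm, pyruvate kinase, stood in the Ezh2 series at 297, 405 and 316 CPM on day 0, 367, 377 and 348 on day 1 and 338, 364 and 351 on day 4, and was not called. Its level fell in the Suz12 series, from 974, 996 and 1021 CPM to 808, 848 and 882 on day 1 and 512, 499 and 507 on day 4 (log2 change -0.98 ± 0.06, adjusted p 8.36e-24). The difference between the series on day 4 was called (-0.98 ± 0.22, adjusted p 0.000319), and Pkm began at a higher level in the Suz12 series. Counts at the 3′ end cannot separate the splice forms M1 and M2.

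Lactate dehydrogenase has the subunits Ldha, which favours lactate, and Ldhb, which favours pyruvate. Ldha rose in WT of the Ezh2 series from 289.6, 364 and 316 CPM to 388, 372 and 456 on day 1 and 548, 643 and 561 on day 4 (log2 change 0.85 ± 0.11, adjusted p 8.76e-08). The Suz12 series went from 662, 614 and 588 CPM to 583, 594 and 587 on day 1 and 515.3, 525 and 516 on day 4 (log2 change -0.26 ± 0.07, adjusted p 0.000348). All 6 WT libraries of day 4 lay between 515.3 and 643 CPM, where those of day 0 had not overlapped between the series. The call in the Suz12 series was lost with the chromosome correction.

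Ldhb fell in both series. Ldhb in the Ezh2 series went from 216, 258 and 204 CPM to 97.3, 99.1 and 88.1 on day 1 and 27.5, 30.8 and 27.4 on day 4 (log2 change -2.98 ± 0.12, adjusted p 2.8e-20). The Suz12 series levels were 139.9, 143 and 148 CPM on day 0, 87.3, 92.1 and 95.9 on day 1 and 91.1, 84.4 and 91.4 on day 4 (log2 change -0.69 ± 0.08, adjusted p 1.62e-11). The fall by day 4 was larger in the Ezh2 series (difference 2.34 ± 0.14, adjusted p 5.48e-22).

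Lactate crosses the membrane through Slc16a1 (Mct1) and Slc16a3 (Mct4). Slc16a1 was counted at 89.9, 107 and 91.6 CPM on day 0, 142, 124 and 142 on day 1 and 278, 339.6 and 298 on day 4 in the Ezh2 series. For the Suz12 series the values were 87.0, 98.0 and 103 CPM, 180.0, 173 and 127 and 173, 185 and 189.7. All libraries of day 1 and day 4 were above those of day 0 in both series (day 4: log2 change 1.67 ± 0.13, adjusted p 1.43e-12 and log2 change 0.93 ± 0.09, adjusted p 3.69e-14). Slc16a3 was not called on day 4 in the Ezh2 series and fell in the Suz12 series from 118, 118 and 131 to 85.0, 77.8 and 87.0 CPM (log2 change -0.56 ± 0.18, adjusted p 0.0102).

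The kinases Pdk1 to Pdk4 switch pyruvate dehydrogenase off. Pdk1 stood at 47.4, 46.9 and 43.4 CPM on day 0, 73.1, 78.4 and 89.7 on day 1 and 23.1, 18.1 and 19.3 on day 4 in the Ezh2 series, a rise on day 1 (log2 change 0.81 ± 0.14, adjusted p 1.38e-05) followed by a fall (log2 change -1.18 ± 0.15, adjusted p 3.56e-08). Pdk1 fell at once in the Suz12 series, from 39.5, 41.5 and 52.6 CPM to 17.6, 21.8 and 31.3 on day 1 and 19.8, 22.6 and 23.9 on day 4 (log2 change -1.01 ± 0.25, adjusted p 0.000953). Pdk2 and Pdk3 rose by day 4 in both. Pdk2 went from 4.67, 7.51 and 5.65 to 12.6, 21.9 and 15.2 CPM in the Ezh2 series (log2 change 1.48 ± 0.34, adjusted p 0.00041) and from 4.30, 2.41 and 3.45 to 13.7, 11.5 and 11.2 CPM in the Suz12 series (log2 change 1.83 ± 0.28, adjusted p 4e-08). On day 1 Pdk2 had fallen in the Ezh2 series, to 2.02, 1.72 and 2.47 CPM (log2 change -1.51 ± 0.44, adjusted p 0.00569), and risen in the Suz12 series, to 9.59, 10.4 and 4.86 CPM (log2 change 1.27 ± 0.30, adjusted p 0.000179).

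Pdk3 went from 23.4, 30.0 and 22.8 to 62.0, 58.5 and 63.2 CPM in the Ezh2 series (log2 change 1.27 ± 0.14, adjusted p 4.46e-09). Its peak in the Suz12 series was on day 1, with 41.6, 30.2 and 38.5 CPM on day 0, 107, 109.9 and 122 on day 1 (log2 change 1.62 ± 0.10, adjusted p 1.88e-22) and 56.4, 59.0 and 62.3 on day 4. Pdk4 did not exceed 2.41 CPM in any library. The dehydrogenase subunits Pdha1 and Pdhb fell by day 4 in both series. Pdha1 went from 156, 129.5 and 135 to 65.2, 71.9 and 67.7 CPM in the Suz12 series (log2 change -1.04 ± 0.10, adjusted p 6.18e-15) and changed by -0.51 ± 0.15 on the log2 scale in the Ezh2 series (adjusted p 0.00548), a call lost without WT day 4 replicate 1 (adjusted p 0.0642). Pdhb went from 162, 167 and 185 to 80.4, 79.2 and 81.4 CPM (log2 change -1.09 ± 0.09, adjusted p 9.64e-17) and in the Ezh2 series from 92.8, 73.9 and 94.3 to 44.2, 49.9 and 44.1 CPM (log2 change -0.92 ± 0.12, adjusted p 3.78e-08). On day 1 the series again moved apart, with Pdhb higher in the Ezh2 series (0.50 ± 0.11) and lower in the Suz12 series (-1.26 ± 0.09). Dlat, the acetyltransferase of the complex, was called in the Suz12 series alone (log2 change -0.31 ± 0.12, adjusted p 0.0182 on day 4), a call lost without WT day 0 replicate 1 or WT day 4 replicate 2 (highest adjusted p 0.162), and the difference between the series was not called for it.

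Across the 6 lines of both series, 14 genes were called in the same direction on day 4 in every line. Pdk2, Pdk3, Pfkfb3, Slc16a1 and Tpi1 were higher, and Aldoa, Fbp2, Hk2, Ldhb, Pdha1, Pdhb, Pdk1, Pfkp and Slc2a3 were lower. On day 1 there were 7, with Eno3, Slc16a1 and Slc2a1 higher and Hk1, Hk2, Ldhb and Pfkp lower. The share of all genes called the same way in every line was not computed, so these counts are not read as a trait of the set. Within the EV and mutant lines, edgeR on day 4 called 25 genes in EV (60.8% of all genes) and 26 in amKR (59.9%) in the Ezh2 series, and 25 in EV (74.1%) and 29 in ddim (73.6%) in the Suz12 series. On day 1 it called 19 in EV (46.7% of all genes), 22 in amKR (47.9%), 25 in EV of the Suz12 series (61.8%) and 26 in ddim (62.4%).

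**Figure D3:**
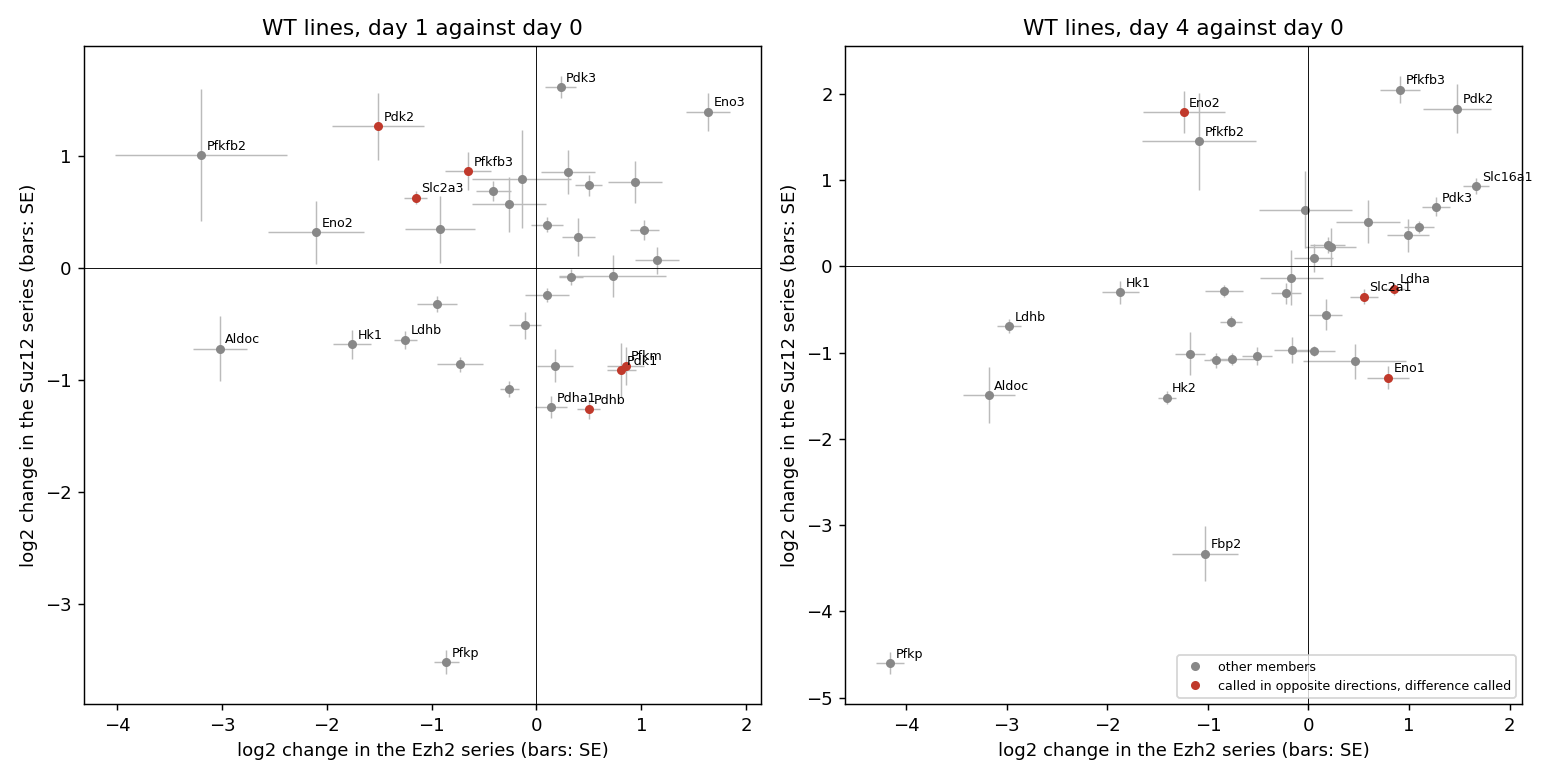
Log2 change of each gene in WT of the Ezh2 series (horizontal axis) and the Suz12 series (vertical axis), day 1 on the left and day 4 on the right, with bars of 1 SE. Red points are the 6 genes on day 1 and the 4 on day 4 that were called in opposite directions and whose difference was called.

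The WT lines of the series were compared in a joint fit, chosen after the values had been seen. The series were separate experiments with different knockouts, so line and experiment cannot be told apart. On day 1 the change from day 0 differed for 22 of 35 genes, 12 higher and 10 lower in the Suz12 series, against 51.4% of all genes tested, 25.4% higher and 25.9% lower. On day 4 it differed for 19, 7 higher and 12 lower, against 38.1% of all genes, 18.5% higher and 19.6% lower. On day 1, 11 genes were called in the same direction in both WT lines and 6 in opposite directions with a called difference: Slc2a3, Pfkfb3 and Pdk2 rose in the Suz12 series and fell in the Ezh2 series, and Pfkm, Pdk1 and Pdhb did the reverse. On day 4, 17 went the same way and 4 went opposite ways, with Slc2a1, Eno1 and Ldha higher in the Ezh2 series and lower in the Suz12 series and Eno2 the reverse. Shares of all genes called the same way or opposite ways in the WT lines were not computed, so these counts only describe the set. Cell state markers also differed between the series: the summed level of 10 formative pluripotency genes in WT was 343 to 355 CPM on day 0 in the Ezh2 series and 1210 to 1670 in the Suz12 series. That of 18 endoderm genes on day 1 was 888 to 999 against 3250 to 3560 CPM. The part of these states in the differences was not tested.

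**Figure D4:**
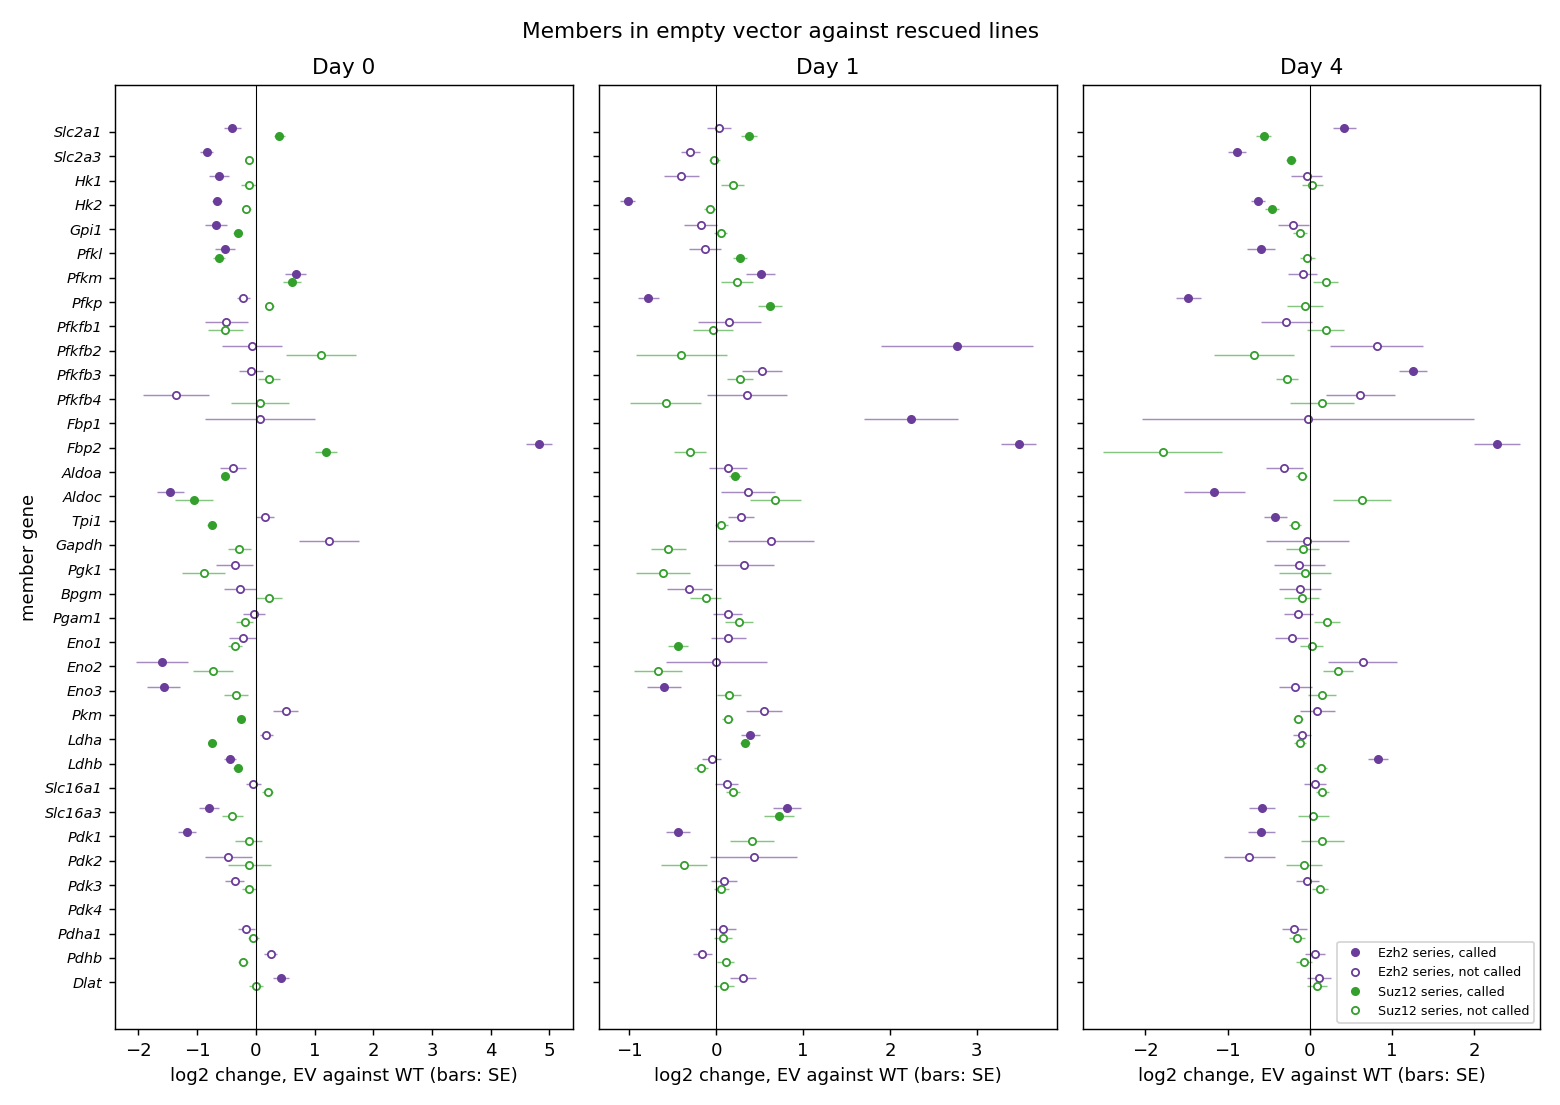
Log2 difference between EV and WT for each gene on days 0, 1 and 4 in the Ezh2 and Suz12 series, with bars of 1 SE and filled points for calls at adjusted p under 0.05. Fbp2 lies far to the right in the Ezh2 series on all 3 days, and most filled points on day 0 lie left of 0.

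The second comparison sets the lines labelled as empty vector against WT. In the Ezh2 series the targeted gene goes against that label on days 0 and 4. Mean Ezh2 was 183 CPM in EV against 88.3 in WT on day 0 and 128 against 33.1 on day 4. On day 1 it was lower in EV, at 192 against 231 CPM. On day 0 of that series edgeR called 15 of 35 genes, 3 higher and 12 lower in EV, against 29.3% of all genes, 16.8% higher and 12.4% lower, and the median log2 difference was -0.36 beside 0.04 for all genes (-0.17 without EV day 0 replicate 1 and -0.15 without WT day 0 replicate 2). The lower genes were the transporters Slc2a1, Slc2a3 and Slc16a3, both hexokinases, Gpi1, Pfkl, Aldoc, Eno2, Eno3, Ldhb and Pdk1. Leaving out 1 library gave 11 to 15 calls in either direction. Pfkl overlapped between the lines, at 66.0, 90.7 and 109.7 CPM in EV against 101.5, 156.5 and 124.1 in WT. WT day 0 replicate 2 was the highest WT library for Pfkl, Gpi1, Hk1 and Slc16a3. Pdk1 was 25.3, 18.4 and 17.4 CPM in EV against 47.4, 46.9 and 43.4 in WT (log2 change -1.17 ± 0.15, adjusted p 4.68e-07). Aldoc was 10.2, 12.2 and 14.8 against 25.6, 46.4 and 30.8 CPM (log2 change -1.46 ± 0.23, adjusted p 1.52e-05). No EV library reached the lowest WT library for either gene.

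Eno3 stood at 2.92, 3.53 and 3.30 CPM in EV against 7.35, 12.1 and 9.72 (log2 change -1.57 ± 0.28, adjusted p 5.69e-05), and Eno2 at 1.95, 1.18 and 3.53 against 5.57, 7.05 and 7.69 (log2 change -1.60 ± 0.44, adjusted p 0.00624). Among the early steps, Slc2a3 was 584, 587 and 592 against 1081, 973 and 1096 CPM (log2 change -0.84 ± 0.11, adjusted p 9.9e-07) and Hk2 321, 357 and 322 against 521, 539 and 522 (log2 change -0.66 ± 0.09, adjusted p 1.26e-06), again without overlap. Fbp2, Pfkm and Dlat were higher, Dlat with a call lost without EV day 0 replicate 1, EV day 0 replicate 2 or WT day 0 replicate 2 (highest adjusted p 0.193). Pfkm was 17.8, 20.5 and 20.5 against 11.1, 15.0 and 10.4 CPM (log2 change 0.68 ± 0.18, adjusted p 0.00492).

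Slc2a3, Hk2, Eno2 and Ldhb lie on chromosome 6, as do Tpi1, Gapdh and Bpgm, and the 721 tested genes of that chromosome had a median log2 difference of -0.27 on day 0, -0.25 on day 1 and -0.33 on day 4 between EV and WT in the Ezh2 series. With the median of each chromosome taken off, the day 0 differences were -0.60 for Slc2a3, -0.43 for Hk2 and -1.36 for Eno2, all still called, and -0.21 for Ldhb (adjusted p 0.163), whose call was lost. Gapdh, at 178, 178 and 110.4 CPM in EV against 60.1, 46.4 and 88.9 in WT, was called with that correction (log2 difference 1.48, adjusted p 0.0325) and not without it. Tpi1 was called higher on day 1 with the correction (0.54, adjusted p 0.00886) and not without it (0.28, adjusted p 0.188), and on day 4 its call was lost (-0.09). The day 4 difference of Hk2 went from -0.63 to -0.30 (adjusted p 0.0289) and was still called. What lies behind the shift of the chromosome was not tested.

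On day 1 edgeR called 10 genes in EV of the Ezh2 series, 6 higher and 4 lower, against 20.9% of all genes, 13.2% higher and 7.64% lower. It called 6 when WT day 1 replicate 1 was left out. Hk2 was 216, 219 and 213 CPM against 444, 438 and 438 (log2 change -1.02 ± 0.09, adjusted p 2.21e-10). Slc16a3, the lactate exporter that had been lower on day 0, was higher, at 145, 162 and 161 against 80.9, 91.1 and 94.6 CPM (log2 change 0.81 ± 0.16, adjusted p 0.000214). Fbp1 was 3.28, 3.16 and 4.31 against 0.674, 1.08 and 0.449 CPM (log2 change 2.24 ± 0.54, adjusted p 0.00239), all at low counts. Pfkfb2, at 0.468, 1.13 and 1.92 against 0, 0.215 and 0.224 CPM, was called on few counts (adjusted p 0.0128), and its call was lost without EV day 1 replicate 3 or WT day 1 replicate 1, without the filter, with DESeq2 and in a fit of the 2 groups alone (highest adjusted p 0.0876).

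On day 4 edgeR called 12 genes, 4 higher and 8 lower, against 17.8% of all genes, 9.62% higher and 8.2% lower. The count was 7 without EV day 4 replicate 1, EV day 4 replicate 3 or WT day 4 replicate 2. Pfkp, already low in WT, was lower still in EV, at 10.3, 12.7 and 12.2 against 31.2, 31.9 and 35.5 CPM (log2 change -1.48 ± 0.15, adjusted p 4.71e-09). Pfkfb3 was higher, at 44.3, 50.5 and 34.1 against 18.8, 17.1 and 18.1 CPM (log2 change 1.25 ± 0.17, adjusted p 2.08e-06), with no overlap for either gene. Aldoc was 1.21, 1.99 and 1.77 against 3.68, 4.73 and 2.84 CPM (log2 change -1.16 ± 0.37, adjusted p 0.0256), a call lost without EV day 4 replicate 1, EV day 4 replicate 3 or WT day 4 replicate 2 (highest adjusted p 0.145).

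Ldhb was called lower in EV on day 0, a call lost with the chromosome correction as given above. On day 4 Ldhb was higher in EV, at 45.4, 55.4 and 51.0 against 27.5, 30.8 and 27.4 CPM (log2 change 0.83 ± 0.12, adjusted p 3.85e-06). The test of the change of the EV difference between day 0 and day 4 called 8 genes, 5 with a rise and 3 with a fall, against 12.4% of all genes, 5.08% with a rise and 7.35% with a fall. Among them were Ldhb (log2 change 1.27 ± 0.16, adjusted p 6.28e-07), Pfkfb3 (log2 change 1.33 ± 0.28, adjusted p 0.00103), Pfkp (log2 change -1.28 ± 0.19, adjusted p 1.07e-05) and Eno3 (log2 change 1.39 ± 0.34, adjusted p 0.00537). Eno2 was called too (log2 change 2.23 ± 0.62, adjusted p 0.0128), at 2.22, 7.79 and 3.15 CPM in EV on day 4, and not without EV day 4 replicate 2, its highest library (adjusted p 0.101).

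**Figure D5:**
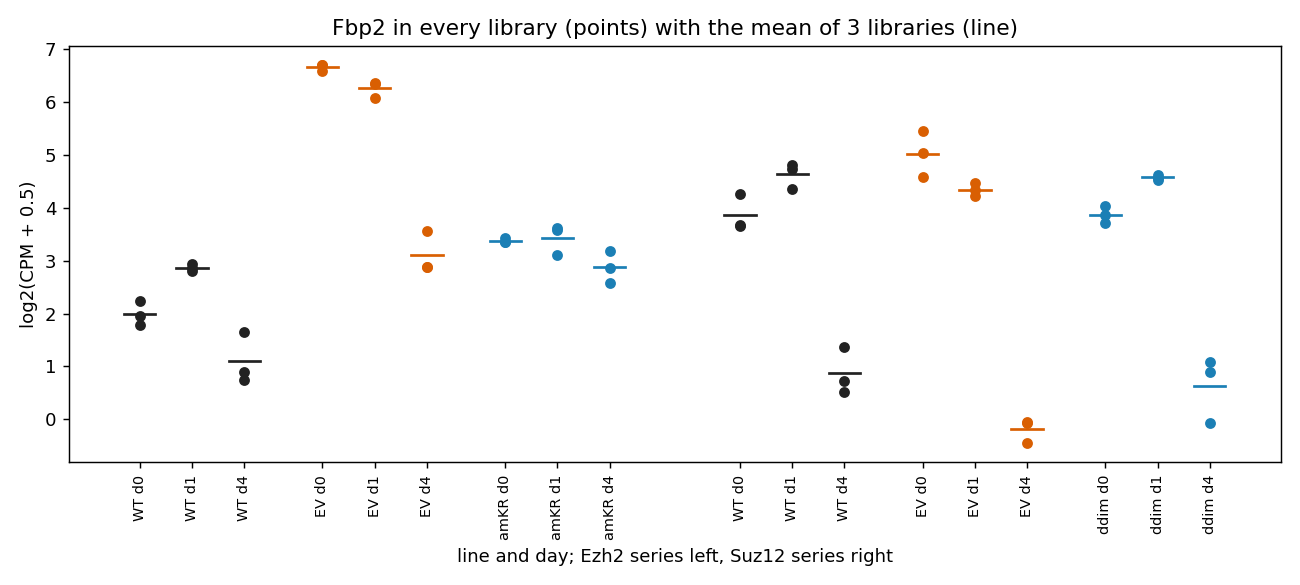
Fbp2 in every library as log2 of CPM plus 0.5, by line and day, Ezh2 series on the left and Suz12 series on the right. EV stands above amKR and amKR above WT on day 0 of the Ezh2 series, EV and amKR overlap on day 4, and all lines of the Suz12 series are lowest on day 4.

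Fbp2, the muscle fructose bisphosphatase, differed most between EV and WT. On day 0 of the Ezh2 series it was counted at 95.5, 103 and 104 CPM in EV, 10.3, 9.75 and 9.72 in amKR and 4.23, 2.96 and 3.39 in WT, an order without overlap between lines. The EV difference was 4.83 ± 0.22 on the log2 scale (adjusted p 3.62e-17). On day 1 EV stood at 81.9, 80.2 and 66.5 CPM against 6.74, 6.46 and 7.18 in WT (log2 change 3.48 ± 0.20, adjusted p 4.75e-15), and on day 4 at 6.85, 11.2 and 6.89 against 1.36, 1.18 and 2.64 (log2 change 2.27 ± 0.28, adjusted p 2.15e-07). The difference thus narrowed with time (log2 change -2.56 ± 0.40, adjusted p 3.13e-05 for day 4 minus day 0), while EV stayed above WT in every library. The calls of Fbp2 between EV and WT held in every setting tried.

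In the Suz12 series Fbp2 was 32.2, 23.5 and 43.2 CPM in EV on day 0 against 12.1, 12.3 and 18.6 in WT (log2 change 1.20 ± 0.19, adjusted p 2.56e-06). On day 1 the lines overlapped, with EV at 21.7, 19.8 and 18.1 CPM, and on day 4 both were near the limit of detection, with EV at 0.230, 0.459 and 0.462 CPM. The change of the EV difference from day 0 to day 4 was called (log2 change -2.99 ± 0.72, adjusted p 0.00336) and was lost without WT day 4 replicate 1 (adjusted p 0.0516). Of 8 muscle markers tested, 1 was higher and none lower in EV of the Ezh2 series on day 0, with a summed level of 4.63 to 5.89 CPM against 3.34 to 4.52 in WT and with Acta2, Actc1 and Myod1 at 0. All 9 tested genes of the 2-cell-like state were higher there, at 24.7 to 31.3 against 0 to 0.227 CPM summed. In the Suz12 series on day 0 the sum went the other way, at 0.541 to 2.4 CPM in EV against 6.9 to 9.67 in WT. The part of these genes in the Fbp2 difference was not tested in either series.

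In EV of the Suz12 series edgeR called 11 of 34 genes at day 0, 3 higher and 8 lower in EV, against 10.8% of all genes, 5.47% higher and 5.37% lower, with a median log2 difference of -0.17 beside -0.01 for all genes. Ldha was 384, 388 and 342 CPM in EV against 662, 614 and 588 (log2 change -0.74 ± 0.07, adjusted p 2.11e-13), Tpi1 151, 159.7 and 144 against 263, 251 and 250.3 (log2 change -0.75 ± 0.08, adjusted p 1.16e-11), and Aldoa 724, 732 and 708 against 1016, 1061 and 1051 (log2 change -0.53 ± 0.07, adjusted p 6.41e-09). None of these groups overlapped. Aldoc was 5.06, 4.81 and 2.16 against 5.64, 9.10 and 10.3 CPM (log2 change -1.05 ± 0.32, adjusted p 0.0187), and its call was lost without EV day 0 replicate 3, WT day 0 replicate 2 or WT day 0 replicate 3 (highest adjusted p 0.162). Pfkl was lower (log2 change -0.63 ± 0.10, adjusted p 2.37e-06), as were Gpi1, Pkm and Ldhb, with log2 differences from -0.31 to -0.25. Slc2a1 and Pfkm were higher, Slc2a1 at 286, 286 and 396 against 236, 230.2 and 268 CPM (log2 change 0.40 ± 0.09, adjusted p 0.00159), a call lost without EV day 0 replicate 3, the highest (adjusted p 0.0678).

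On day 1 edgeR called 7 genes in EV of the Suz12 series, 6 higher and 1 lower, against 7.91% of all genes, 3.86% higher and 4.05% lower. The count was 4 without EV day 1 replicate 2 and 3 without WT day 1 replicate 3. Ldha, low on day 0, was now higher, at 782, 713 and 721 against 583, 594 and 587 CPM (log2 change 0.33 ± 0.06, adjusted p 0.000356). Slc2a1 stood at 419, 389 and 399 against 295, 298 and 335 CPM (log2 change 0.38 ± 0.09, adjusted p 0.00329), and Pfkp at 20.6, 18.0 and 20.1 against 14.6, 12.3 and 11.4 (log2 change 0.62 ± 0.14, adjusted p 0.0024). On day 4 it called 3, all lower in EV, against 7.64% of all genes, 3.85% higher and 3.79% lower. They were Slc2a1, at 129, 129.6 and 132 against 176, 201 and 199.7 CPM (log2 change -0.56 ± 0.09, adjusted p 3.27e-05), Hk2, at 139.6, 137 and 166 against 205, 201 and 202 (log2 change -0.46 ± 0.08, adjusted p 1.33e-05), and Slc2a3 (log2 change -0.23 ± 0.06, adjusted p 0.0144), whose call was lost without EV day 4 replicate 3, WT day 4 replicate 1 or WT day 4 replicate 2 (highest adjusted p 0.149).

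The change of the EV difference from day 0 to day 4 was called for 8 genes in the Suz12 series, 6 with a rise and 2 with a fall, against 6.91% of all genes, 3.52% with a rise and 3.39% with a fall. Slc2a1 went from above WT on day 0 to below it on day 4 (log2 change -0.96 ± 0.13, adjusted p 9.11e-07). Ldha (log2 change 0.62 ± 0.09, adjusted p 1.92e-06), Tpi1 (log2 change 0.57 ± 0.10, adjusted p 6.23e-05) and Aldoa (log2 change 0.43 ± 0.09, adjusted p 0.00109) were below WT on day 0 and not called on day 4. Aldoc was called (log2 change 1.69 ± 0.47, adjusted p 0.0161) and lost without EV day 0 replicate 3, EV day 4 replicate 3 or WT day 0 replicate 3 (highest adjusted p 0.092). Across the series, Hk2 was lower in EV than in WT on day 4 in both, and Fbp2 was higher on day 0 in both. Slc2a1 differed from WT in opposite directions on day 0 (-0.40 ± 0.15 in the Ezh2 and 0.40 ± 0.09 in the Suz12 series) and on day 4 (0.42 ± 0.14 and -0.56 ± 0.09). Both Slc2a1 calls in the Ezh2 series were lost in 4 of 6 fits without a library (highest adjusted p 0.144 on day 0 and 0.189 on day 4), those without EV replicate 2 or 3 or WT replicate 2 or 3 on day 0 and without EV replicate 1 or 3 or WT replicate 2 or 3 on day 4. No test of the EV differences between the series was run.

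The third comparison sets the mutant forms against WT, which also served as control for EV. For amKR on day 0 edgeR called 3 of 35 genes, 2 higher and 1 lower, against 4.48% of all genes, 2.44% higher and 2.04% lower. Fbp2 was higher at the values given above (log2 change 1.48 ± 0.25, adjusted p 0.000717). Ldhb was 307, 375 and 329 CPM against 216, 258 and 204 (log2 change 0.58 ± 0.10, adjusted p 0.00129). EV was lower than WT for Ldhb on that day, with a call lost under the chromosome correction. Slc16a3 was 41.5, 42.2 and 37.6 against 47.9, 92.6 and 61.5 CPM (log2 change -0.73 ± 0.16, adjusted p 0.00976), a call lost without WT day 0 replicate 2, the highest of the group, or amKR day 0 replicate 3 (highest adjusted p 0.173). On day 1 edgeR called 0 genes of the set, against 1.63% of all genes. An unadjusted p under 0.05 was found for 10 of the set, against 2449 of all 14086 genes, and DESeq2 called 3. Shares of all genes called by DESeq2 are not given here for any comparison.

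On day 4 edgeR called 2 genes in amKR, both higher, against 1.71% of all genes, 1.22% higher and 0.49% lower. Fbp2 was 6.77, 8.58 and 5.50 CPM against 1.36, 1.18 and 2.64 (log2 change 2.00 ± 0.29, adjusted p 5.97e-05), without overlap. Slc16a1 was 429, 438 and 416 against 278, 339.6 and 298 CPM (log2 change 0.49 ± 0.13, adjusted p 0.0362), without overlap, and its call held in 1 of the 6 fits that left out a library of these groups (highest adjusted p 0.17) and was lost with the chromosome correction. The change of the amKR difference from day 0 to day 4 was called for 0 genes, against 0.156% of all genes. An unadjusted p under 0.05 was found for 5 of the set, against 1231 of all 14086 genes, and DESeq2 called 1.

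For ddim edgeR called 0 of 34 genes on day 0, against 0% of all genes. An unadjusted p under 0.05 was found for 0 of the set, against 525 of all 14442 genes, and DESeq2 called 0. On day 1 edgeR called 0, against 0.0623% of all genes. An unadjusted p under 0.05 was found for 6 of the set, against 1368 of all 14442 genes, and DESeq2 called 0. On day 4 edgeR called 1, against 0.152% of all genes, 0.0831% higher and 0.0692% lower. This was Slc16a1, at 136, 132 and 134 CPM against 173, 185 and 189.7 (log2 change -0.44 ± 0.09, adjusted p 0.00582), without overlap. The call was lost without WT day 4 replicate 3, ddim day 4 replicate 2 or ddim day 4 replicate 3 (highest adjusted p 0.0783), and DESeq2 called 2 genes. By these calls the lactate transporter Slc16a1 was lower than WT in ddim and higher than WT in amKR on day 4. Both calls were lost in fits without some libraries, and that of amKR also with the chromosome correction. A difference between these effects was not tested. The change of the ddim difference from day 0 to day 4 was called for 0 genes, against 0% of all genes. An unadjusted p under 0.05 was found for 2 of the set, against 753 of all 14442 genes, and DESeq2 called 0.

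The authors' deposited table of genes for WT against KO, which gives symbols without values, lists Eno2, Pdk1, Aldoc and Eno3 as down and Fbp2 and Gapdh as up on day 0. The authors' deposited table lists Hk2 as down and Fbp1 and Fbp2 as up on day 1, and Pfkp as down and Fbp2 and Pfkfb3 as up on day 4. For WT against amKR the authors' deposited table lists Fbp2 and Gapdh as up on day 0 and Fbp2 as up on day 4, and no other gene of the set. Gapdh was not called for amKR here, at 124, 134 and 139.7 CPM against 60.1, 46.4 and 88.9 in WT.

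Genes of the same pathways outside the set were taken from a second list of glycolysis and pyruvate genes. In WT on day 1 it had 4 genes higher and 6 lower of 25 tested in the Ezh2 series, and 11 higher and 9 lower of 26 in the Suz12 series, where 22.3% and 24.2% of all genes were higher and lower in the Ezh2 series and 32.8% and 29.1% in the Suz12 series. On day 4 the counts were 8 and 7, against 29.6% and 27.5% of all genes, and 12 and 5, against 37.1% and 36.5%. Hkdc1, a hexokinase-like gene, stood at a mean of 18.0 CPM on day 4 of the Ezh2 series with 0 on day 0, and at 34.1 against 0.0892 in the Suz12 series. Tigar, which lowers fructose bisphosphate, fell by 1.16 ± 0.10 on the log2 scale (adjusted p 3.4e-12) and by 2.65 ± 0.11 (adjusted p 2.08e-31). Between EV and WT, 4 were higher and 3 lower on day 0 in the Ezh2 series, against 16.8% and 12.4% of all genes, and 1 was higher in the Suz12 series, against 5.47%. On day 4 of the Ezh2 series Pck2, the mitochondrial enzyme that turns oxaloacetate into phosphoenolpyruvate, was 16.6 CPM in EV against 195 in WT (log2 change -3.56 ± 0.12, adjusted p 1.21e-20). For amKR 0 genes of this list were higher and 1 lower over the 3 days by edgeR, and for ddim none was called.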

How the data were processed

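RNA of 54 mouse embryonic stem cell samples was counted by QuantSeq 3′ mRNA sequencing. The authors deposited whole-number counts per gene, without normalization, and the build is mm10 per the submitters' processing notes; aligner, annotation and strand setting are not given in the sources used here. They also deposited 12 lists of gene symbols (unit: other, no values). Each table summed to a nearly fixed total, 7996693 to 8002940 reads in the Ezh2 series and 6997715 to 7001555 in the Suz12 series. Of these, 13.355 to 22.746% hit no gene, 2.874 to 4.221% were ambiguous and 16.931 to 23.271% had several alignments, and these rows stayed out of library sizes. A group without a count may hold up to 3 counts, 0.193 to 0.269 CPM, a floor for counting error alone.

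The 27 libraries of a series were fitted together with edgeR 4.0.16 in R 4.3.3 (filterByExpr, TMM, robust quasi-likelihood, 1 mean per group), on 14086 and 14442 genes. Tests were two-sided, and a gene was called where its p, adjusted over all genes (Benjamini-Hochberg), was under 0.05. A joint fit of all 54 libraries (15371 genes) and its contrasts were chosen after the values were seen. CPM are counts scaled to a common library size by TMM, and SE is that of the log2 change. The labels do not say whether the 3 samples of a group came from separate cultures, so p-values measure only the spread between these samples. EV and mutant comparisons share their WT samples. Replicate pairs differed by more than counting noise (chi-square per degree of freedom 1.41 to 42.41), so no library was counted as a duplicate. The model was tested on simulated counts.

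The 36 genes and the other gene lists were chosen with earlier results of these data known. A gene is named with its change where it was called, its groups did not overlap and the log2 change was at least 1 (or, with fewer than 3 such genes, the 3 called of smallest p), and further genes of the set are given to complete a role. Genes of other lists are named where called with a log2 change of at least 1, up to 3 per list and comparison. Alternatives were no scaling, no filter, DESeq2 1.42.0, the replicate number as block, the compared groups alone, each library left out and, added later, each chromosome's median taken off. Upstream windows came from RefSeq (GRCm38.p6) for 35 of 36 genes; that of Slc2a3 was not used here.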

Additional observations from a re-analysis of the deposited data

Results flagged for a closer look

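The difference between EV and WT changed from day 0 to day 4 for 8 genes in each series, by a test of that change. For Ezh2 these were 22.9% of the 35 tested genes of the set, where 12.4% of all genes were called. For Suz12 they were 23.5% of 34, where the share of all genes was lower, at 6.91%. In the Ezh2 series the log2 changes of the difference were 0.83 for Slc2a1, -0.78 for Pfkm, -1.28 for Pfkp, 1.33 for Pfkfb3, -2.56 for Fbp2, 2.23 for Eno2, 1.39 for Eno3 and 1.27 for Ldhb. The call of Pfkm was lost under every other setting tried on all libraries (highest adjusted p 0.152). In the Suz12 series they were -0.96 for Slc2a1, 0.59 for Pfkl, -2.99 for Fbp2, 0.43 for Aldoa, 1.69 for Aldoc, 0.57 for Tpi1, 0.62 for Ldha and 0.45 for Ldhb. The calls of Eno2 in the Ezh2 series and of Fbp2 and Aldoc in the Suz12 series were lost without some libraries, as given above. Slc2a1 is in both lists with opposite signs. Fbp2 is in both with the same sign, as is Ldhb.

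The WT lines of the series changed in opposite directions from day 0, with a called difference, for 6 genes on day 1. The difference, Suz12 series minus Ezh2 series, was 1.77 for Slc2a3, -1.73 for Pfkm, 1.51 for Pfkfb3, -1.73 for Pdk1, 2.77 for Pdk2 and -1.78 for Pdhb. The fall of Pfkfb3 in the Ezh2 series was lost when some libraries were left out, as given above. On day 4 the same held for 4 other genes, at -0.84 for Slc2a1, -2.03 for Eno1, 3.09 for Eno2 and -1.06 for Ldha. The fall of Eno2 in the Ezh2 series was lost without WT day 4 replicate 2. That of Ldha in the Suz12 series was lost with the chromosome correction. The share of all genes with opposite calls was not computed. Retinoic acid was added as LIF and the inhibitors were removed, so their parts in these changes cannot be told apart.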

How the results depend on the processing

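No called direction of a gene named by the rule reversed under any alternative. Values that were not called did turn under the chromosome correction between EV and WT of the Ezh2 series, from -0.05 to 0.21 for Ldhb on day 1 and, on day 4, from -0.12 to 0.21 for Bpgm and from -0.03 to 0.30 for Gapdh. The median over the set moved by more than the replicate spread in 38 fits that left out 1 library, in 6 comparisons without scaling and in 4 with only the compared groups. Counts of called genes that moved by over 1.5 times were those of small comparisons. With only the groups compared in the fit, 7 genes were called for EV against WT on day 4 in the Ezh2 series, 7 for amKR on day 0, 4 for amKR on day 1, 4 for EV on day 1 in the Suz12 series and 2 for ddim on day 4. For amKR on day 1 the count was 1 without scaling, without the filter, with the replicate block or with the chromosome correction, and 3 with DESeq2. The chromosome correction gave 1 for amKR on day 4. The change of the amKR difference from day 0 to day 4 had 1 gene without the filter and 1 with DESeq2, and DESeq2 gave 2 for ddim on day 4. Shares of all genes called are not given here for these fits or for those below that leave out 1 library. Such counts therefore only describe the set, and the cause of the moves was not tested. Leaving out 1 library gave 6 to 11 genes for EV on day 1 and 7 to 13 on day 4 in the Ezh2 series, 0 to 1 and 1 to 2 for amKR on days 1 and 4, 0 to 1 for the change of the amKR difference, 3 to 9 for EV on day 1 in the Suz12 series and 0 to 1 for ddim on day 4. The library behind each is named beside its result, apart from amKR on day 1 (amKR day 1 replicate 3), on day 4 (WT day 4 replicates 1 and 3 and each amKR library of day 4) and for the change (amKR day 0 replicate 2).

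The replicate number as a block moved no other count by over 1.5 times. Deviations of libraries with the same number correlated above 0.1 throughout in 2 of the 13 group pairs compared for Ezh2 and in 0 of 13 for Suz12. The 2 were EV on day 1 against day 0 and EV against WT on day 4, where the block left the counts at 19 and 12. In the other pairs the numbers were not taken to pair the samples. Depth limits Fbp1, Pdk4, Pfkfb2 and Pfkfb4, with at most 4.85 CPM in any library.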

Other observations

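Mitochondrial genes outside the set moved in EV of the Ezh2 series on day 0. Of 30 oxidative phosphorylation genes tested, 14 were higher and 1 lower in EV than in WT, against 16.8% and 12.4% of all genes, with a median log2 difference of 0.45 beside 0.04 for all genes. Among them were Uqcrfs1, a subunit of complex III (73.8 against 32.2 CPM, log2 difference 1.20 ± 0.24, adjusted p 0.000734), Cox7c, a subunit of cytochrome oxidase (622 against 82.7 CPM, 2.91 ± 0.70, adjusted p 0.00388), and Atp5j, a part of ATP synthase (77.2 against 29.2 CPM, 1.40 ± 0.37, adjusted p 0.00778). Of 21 genes of the TCA cycle 8 were higher and none lower, beside the same shares of all genes, among them Sdhc (58.2 against 23.0 CPM, 1.34 ± 0.34, adjusted p 0.00562). The Suz12 series had, in EV on day 0, 0 genes higher and 1 lower of 30, and 1 higher and 1 lower of 21, against 5.47% and 5.37% of all genes. Genes of amino acid and serine synthesis were lower in EV of the Ezh2 series later on, with 1 higher and 9 lower of 16 on day 1, against 13.2% and 7.64% of all genes, and 1 higher and 11 lower on day 4 (median -1.76), against 9.62% and 8.2%. Asns, asparagine synthetase, was 163 CPM in EV on day 4 against 971 in WT (-2.57 ± 0.10, adjusted p 2.34e-19), and Mthfd2, of mitochondrial folate metabolism, 51.8 against 367 (-2.82 ± 0.11, adjusted p 1.11e-19). In the Suz12 series 0 were higher and 3 lower of 15 on day 4, against 3.85% and 3.79% of all genes.

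Hypoxia response genes outside glycolysis also responded differently in the WT lines, with a day 1 change that was higher in the Suz12 series for 15 and lower for 3 of 28 tested in the joint fit, against 25.4% and 25.9% of all genes. On day 1 in WT 1 was higher and 15 lower of 25 tested in the Ezh2 series, against 22.3% and 24.2% of all genes, and Vegfa fell from 200 to 73.3 CPM. In the Suz12 series 12 were higher and 6 lower of 28, against 32.8% and 29.1%. On day 4 the counts were 7 and 9, against 29.6% and 27.5%, and 18 and 3, against 37.1% and 36.5%. P4ha1, a collagen prolyl hydroxylase, reached 362 CPM on day 4 of the Suz12 series against 27.8 on day 0 (log2 change 3.70 ± 0.10, adjusted p 3.73e-43). Tdh, the threonine dehydrogenase of mouse stem cells, fell from 292 to 14.8 CPM in WT of the Ezh2 series and from 485 to 17.0 CPM in the Suz12 series by day 4.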
